A study of Homo sapiens with 16 samples.

Results

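The genes described here are 10 markers of the neuronal cytoskeleton and synapse, DCX, MAP2, TUBB3, STMN2, GAP43, SYT1, SNAP25, SYN1, ELAVL4 and NCAM1, taken by symbol from a table of raw counts for 23459 genes. They were chosen by name, with earlier results of these data known, so counts of them beside shares of all genes are only a description. All 10 were among the 15967 genes with enough counts to be tested. RNA was sequenced from Be(2)-C and IMR5-75 cells, 2 clonal human neuroblastoma lines with amplified MYCN. Cells were exposed to 1 µM DAC over 72 h, to 1 µM EPZ-6438 over 96 h, to both drugs in this way, or to the solvent DMSO alone. DAC, which the labels do not spell out, usually stands for decitabine, which depletes DNA methyltransferases once it is built into DNA. EPZ-6438 blocks EZH2, the enzyme that trimethylates histone H3 at lysine 27. Each of the 8 groups of line and treatment held 2 libraries.

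A neuron builds its processes on bundled microtubules and its synapses on vesicles that fuse when calcium enters. DCX, MAP2, TUBB3 and STMN2 bind, build or destabilise microtubules, and GAP43 lies under the growth cone membrane. SYT1, SNAP25 and SYN1 belong to the machinery that holds and releases synaptic vesicles, ELAVL4 stabilises neuronal messenger RNAs, and NCAM1 joins neighbouring cells. Neuroblastoma arises from sympathetic precursors and commonly expresses such genes, and their level is used as a measure of how neuronal a tumour cell is. Outside neurons many of them are held down by REST, a repressor that binds a sequence element named RE1.

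The libraries held 9539557 to 14032155 counts, so that 3 counts corresponded to 0.206 to 0.315 CPM (read counts scaled to the effective library size). CPM is not divided by transcript length, so levels are compared between groups and not between genes. Noradrenergic markers, the identity genes of most neuroblastoma cells, were all detected in every group, 11 of 11, and summed to 4880 to 6440 CPM in Be(2)-C and 1380 to 2110 CPM in IMR5-75. Whether the 2 libraries of a group were grown separately is not stated in the labels; the p-values therefore capture the spread between these libraries alone, and that spread may be technical. Calls rest on edgeR's quasi-likelihood test with a Benjamini-Hochberg threshold of 0.05 across every tested gene, and changes are log2 differences ± SE. In bulk RNA, fewer cells that express a gene and less of its RNA per cell cannot be told apart.

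Upstream sequence was looked up because DNA methyltransferases, which decitabine depletes, act on cytosines next to guanines (CpG). A further reason was that REST binds near several genes of this kind. Of the 10 genes, 7 had a window of 250 bases before an annotated start in RefSeq (GRCh38.p14, another build than that of the counts), 18 windows in all. The median over all 35116 windows was 11 CpG. The SYN1 window (chrX:47619858-47620107, minus strand) held 41 CpG, a number reached by 1.73% of windows. A TUBB3 window (chr16:89923092-89923341, plus strand) held 39 CpG, reached by 2.65%, and the other TUBB3 window 9. The 3 MAP2 windows held 4, 6 and 8 CpG, the 3 of DCX 1 to 3, and the 7 of ELAVL4 from 0 to 14. The SYN1 window also held the core letters of the RE1 element, TTCAGCACC followed after 2 bases by GGACAG, from 233 to 217 bases before the start, which are shown in capitals. With both strands searched, TTCAGCACC was found in 0.288% of windows and the whole arrangement in 5 windows (0.0142%), and it overlaps CpG that were counted. Of the 7 genes only SYN1 had it in these windows. STMN2, SNAP25 and NCAM1 had no window, and elements outside the 250 bases or with other letters would be missed. The windows of GAP43 (chr3:115623260-115623509, plus strand, 7 CpG), DCX (chrX:111412193-111412442, minus strand, 2 CpG, the first of 3) and SYT1 (chr12:78864524-78864773, plus strand, 13 CpG) are shown for comparison with each CpG in capitals, since the first 2 genes rose and the third fell in IMR5-75. At least as many CpG stood in 58.9%, 85.3% and 46.6% of all windows. These windows were picked by the direction of change. SYN1 and TUBB3, with windows of 41 and 39 CpG, also rose after both drugs in IMR5-75, and ELAVL4, with 0 to 14, fell. A relation between CpG number and change was not tested. The CpG and RE1 matches describe letters, and neither methylation nor binding was measured.
SYN1: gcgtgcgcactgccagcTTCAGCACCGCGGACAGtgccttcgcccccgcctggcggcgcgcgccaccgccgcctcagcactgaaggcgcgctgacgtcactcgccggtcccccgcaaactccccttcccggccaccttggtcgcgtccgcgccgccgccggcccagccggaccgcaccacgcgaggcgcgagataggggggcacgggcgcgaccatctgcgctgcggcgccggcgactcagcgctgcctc
GAP43: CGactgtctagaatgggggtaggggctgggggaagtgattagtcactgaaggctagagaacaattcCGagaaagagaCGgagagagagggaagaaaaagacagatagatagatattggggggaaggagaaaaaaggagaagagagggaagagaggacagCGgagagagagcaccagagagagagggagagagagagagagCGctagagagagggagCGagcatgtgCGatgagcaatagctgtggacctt
DCX: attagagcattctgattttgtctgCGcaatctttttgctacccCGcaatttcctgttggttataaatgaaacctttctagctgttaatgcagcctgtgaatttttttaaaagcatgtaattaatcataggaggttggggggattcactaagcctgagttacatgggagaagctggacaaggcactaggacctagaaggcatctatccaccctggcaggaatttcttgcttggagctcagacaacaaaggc
SYT1: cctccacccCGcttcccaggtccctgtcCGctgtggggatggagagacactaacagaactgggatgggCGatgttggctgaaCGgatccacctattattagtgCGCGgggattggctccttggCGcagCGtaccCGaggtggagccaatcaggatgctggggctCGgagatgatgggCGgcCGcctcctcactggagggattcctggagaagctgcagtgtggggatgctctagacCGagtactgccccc

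In solvent alone the lines differed widely in these genes. Of the 10, 9 were higher in Be(2)-C DMSO than in IMR5-75 DMSO, where 31.2% of all tested genes were higher, and 1, ELAVL4, was lower, as were 32.0% of all genes. STMN2 had 1150 and 1150 CPM in Be(2)-C and 0 counts in both IMR5-75 libraries, which makes it at least 9750-fold higher against 3 counts over the group (adjusted p = 7.104e-19). GAP43 had 319 and 315 CPM in Be(2)-C against 1.25 and 1.77 CPM in IMR5-75, a difference of 7.72 ± 0.20. MAP2, SYN1, SNAP25 and NCAM1 were higher by 3.12 ± 0.15, 2.49 ± 0.33, 2.45 ± 0.15 and 2.13 ± 0.13, and SYT1, DCX and TUBB3 by 1.53 ± 0.12, 1.09 ± 0.18 and 1.03 ± 0.16. ELAVL4 had 79.5 and 87.9 CPM in Be(2)-C and 124 and 110 CPM in IMR5-75, a difference of -0.48 ± 0.12 (adjusted p = 0.00112). For all 10 genes the libraries of the lines did not overlap, and every call held when any 1 library was left out. The share of all genes without such overlap was not computed, so this count cannot be read as particular to the 10 genes.

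**Figure D1:**
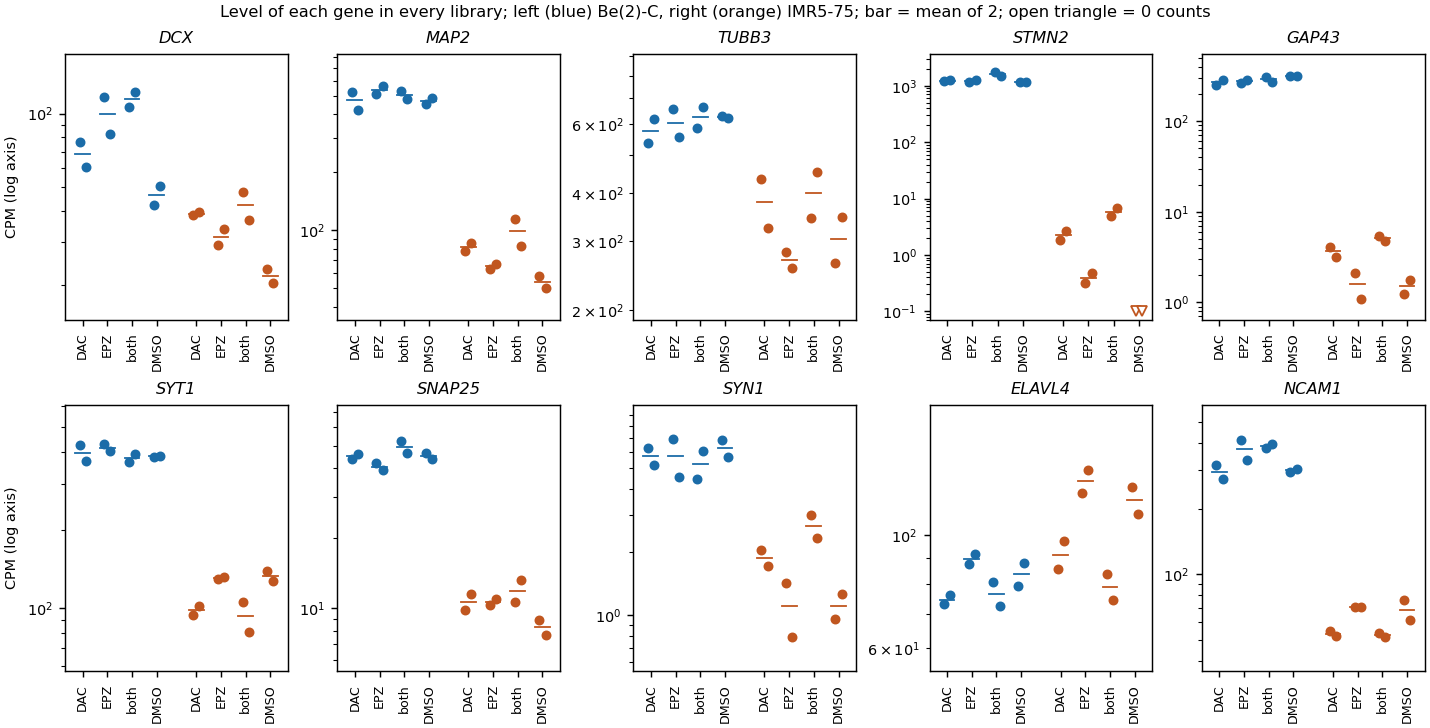
CPM (log axis) of each of the 10 genes in every library, with DAC, EPZ-6438, both drugs and DMSO from left to right, Be(2)-C in blue and IMR5-75 in orange. Bars are means of 2 libraries, and open triangles at the foot of the STMN2 panel mark the 2 IMR5-75 DMSO libraries with 0 counts.

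Between 1 and 3 of the 10 genes were called after each treatment in Be(2)-C. After DAC 1 of the 10, DCX, rose and 0 fell, where 3.73% of all genes rose and 2.97% fell. After EPZ-6438 DCX again was the 1 gene that rose and 0 fell, where 5.35% rose and 4.85% fell. After both drugs 3 rose, DCX, STMN2 and NCAM1, and 0 fell, where 13.2% rose and 10.4% fell. The median change of the 10 genes was -0.01, 0.09 and 0.06 after DAC, EPZ-6438 and both, and that of all genes 0.02, 0.02 and 0.05. The counts of members were not tested against these shares.

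In IMR5-75 more of them were called after DAC and after both drugs, in both directions, while EPZ-6438 gave 1 call in each line. Over all genes more were called there too, 5374 after DAC against 1069 in Be(2)-C, and 7370 after both against 3777. After DAC 4 rose (DCX, MAP2, STMN2 and GAP43) and 3 fell (SYT1, ELAVL4 and NCAM1), where 19.9% of all genes rose and 13.8% fell. After EPZ-6438 STMN2 rose and 0 fell, where 1.63% rose and 0.344% fell. After both drugs 7 rose and 3 fell, where 25.7% rose and 20.4% fell, so that all 10 were called. The median change was 0.48 after DAC, 0.12 after EPZ-6438 and 0.70 after both, with STMN2 at its lower bound, against 0.02, 0.01 and 0.03 for all genes. All 3 comparisons share the same 2 DMSO libraries, and without 1 of the libraries the number called after both drugs ran from 6 to 10.

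Other cells' markers moved beside these changes. The 7 fibroblast markers summed to 338 to 344 CPM after DAC, 162 CPM after EPZ-6438 and 570 to 580 CPM after both, against 119 to 131 CPM in IMR5-75 DMSO, and all 7 rose after both. The 5 Schwann cell markers summed to 14.9 to 15.4, 6.69 to 7.17 and 20.1 to 22.5 CPM, against 3.62 to 4.2 CPM. The 5 blood cell markers summed to 7.51 to 8.81 CPM after DAC, 4.17 to 5.52 CPM after EPZ-6438 and 9.54 to 10.2 CPM after both, against 4.72 to 4.88 CPM in IMR5-75 DMSO, where CD3E and LYZ were at 0. The 4 epithelial markers summed to 1.84 to 2.34, 1.1 to 1.26 and 3.67 to 3.78 CPM, against 0.369 to 0.841 CPM in DMSO. After both drugs 3 of 4 tested Schwann, 2 of 2 tested blood and 1 of 1 tested epithelial markers rose. Beside these counts and that of the 7 fibroblast markers, 25.7% of all genes rose after both drugs in IMR5-75. The fibroblast sum in Be(2)-C was 337 to 377 CPM in treated cells and 417 to 432 CPM in DMSO. After both drugs 2 fibroblast markers were higher and 2 lower there, where 13.2% of all genes rose and 10.4% fell. The Schwann sum there was 10.1 to 13.1, 9.81 and 12.4 to 13.4 CPM after DAC, EPZ-6438 and both, against 6.43 to 8.07 CPM in DMSO. In the same order 1, 1 and 2 of 4 tested Schwann markers were called higher, where 3.73%, 5.35% and 13.2% of all genes were. Blood cell markers in Be(2)-C summed to 1.94 to 5.09 CPM in treated cells and 3.31 to 3.99 CPM in DMSO, and epithelial markers to 1.39 to 3.38 CPM in treated cells and 0.643 to 1.54 CPM in DMSO. CD3E was at 0 there after DAC and EPZ-6438, and KRT5 and KRT14 after either drug alone, while KRT14 was at 0 after DAC in IMR5-75. No defining marker of the fibroblast or Schwann list was at 0 in any group, and the part of these 4 lists in the results was not tested.

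**Figure D2:**
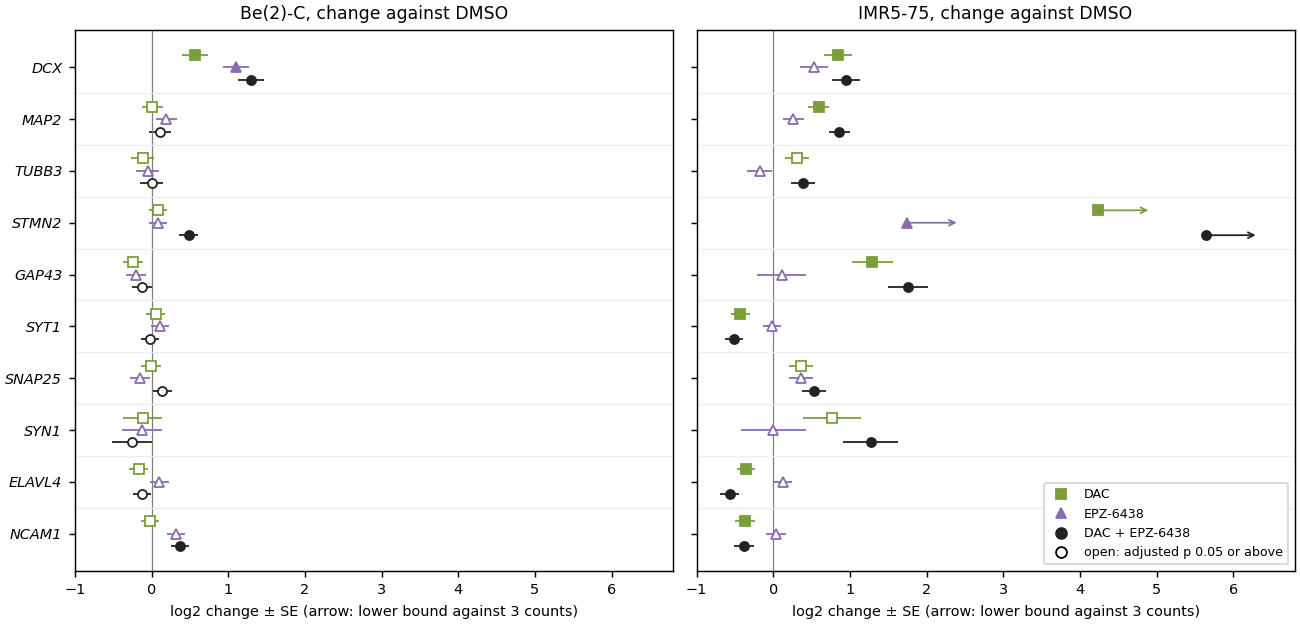
Log2 change against DMSO of the same line for each gene (points, bars are SE), with Be(2)-C on the left and IMR5-75 on the right. Filled points have an adjusted p under 0.05, and the arrows of STMN2 in IMR5-75 start at lower bounds against 3 counts. In Be(2)-C the points other than those of DCX lie between -0.26 and 0.48, and in IMR5-75 those after both drugs lie from -0.57 upward, all filled.

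DCX encodes doublecortin, which bundles microtubules in migrating young neurons. Be(2)-C libraries had 76.8 and 60.4 CPM after DAC, 117 and 82.6 CPM after EPZ-6438, and 106 and 123 CPM after both drugs, against 42.3 and 50.7 CPM in DMSO. Every treated library lay above both DMSO libraries. It rose by 1.10 ± 0.17 after EPZ-6438 (adjusted p = 0.000221) and by 1.3 ± 0.17 after both (adjusted p = 8.19e-06), and both calls held without any 1 library. The DAC change of 0.56 ± 0.17 lay at the threshold (adjusted p = 0.0482). It was lost without DMSO 1 (0.42, adjusted p = 0.388), DMSO 2 (0.69, 0.0994) or DAC 1 (0.36, 0.408), and without any 1 of 8 libraries of other groups (adjusted p of 0.0513 to 0.0674). In IMR5-75 DCX had 38.6 and 39.5 CPM after DAC, 29 and 33.9 CPM after EPZ-6438, and 47.8 and 36.7 CPM after both, against 23.2 and 20.4 CPM in DMSO, again with no overlap. It rose by 0.84 ± 0.18 after DAC (adjusted p = 0.000986) and by 0.95 ± 0.18 after both (adjusted p = 0.000161), while the EPZ-6438 difference was 0.53 ± 0.18 (adjusted p = 0.144), called with no filter on low counts (0.0309). DCX was thus the gene of the 10 that rose after both drugs and after DAC in either line, and no difference of its change between the lines was called (adjusted p of 0.345 to 0.61). The difference after EPZ-6438 was 0.58 ± 0.25, with an interval from 0.01 to 1.14.

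MAP2, which stabilises the microtubules of dendrites, had 523 and 424 CPM after DAC, 511 and 562 CPM after EPZ-6438 and 530 and 484 CPM after both in Be(2)-C, against 456 and 485 CPM in DMSO. No difference was called there, with 95% intervals from -0.30 to 0.32, -0.12 to 0.50 and -0.20 to 0.42. In IMR5-75 it had 77.4 and 85.2 CPM after DAC, 62.9 and 66.5 CPM after EPZ-6438, and 114 and 82.8 CPM after both, against 57.9 and 49.9 CPM in DMSO. All treated libraries lay above DMSO. MAP2 rose by 0.59 ± 0.14 after DAC (adjusted p = 0.00316, lost without DMSO 2 at 0.48 and 0.0585) and by 0.86 ± 0.14 after both (adjusted p = 4.65e-05). The EPZ-6438 difference was 0.26 ± 0.14 (adjusted p = 0.39).

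TUBB3 encodes the beta tubulin typical of neurons. Its level in Be(2)-C was 536 and 619, 655 and 556, and 586 and 666 CPM after DAC, EPZ-6438 and both, against 628 and 622 CPM in DMSO, and no change was called. In IMR5-75 it had 433 and 325 CPM after DAC, 282 and 257 CPM after EPZ-6438, and 345 and 452 CPM after both, against 264 and 346 CPM in DMSO. The libraries after DAC and after both drugs overlapped those in DMSO. The DAC difference was 0.31 ± 0.16 (adjusted p = 0.128), and it was called with no filter on low counts (0.047), without DMSO 2 (0.51, adjusted p = 0.0433) and without DAC 2 (0.52, 0.0296). The change of 0.39 ± 0.16 after both passed narrowly (adjusted p = 0.0477). It was lost without DMSO 1 (0.25, adjusted p = 0.305), without both-drug library 2 (0.22, 0.362), without any of 5 Be(2)-C libraries (0.055 to 0.0762) and with IMR5-75 fitted alone (0.0618). TUBB3 exons overlap the gene AC092143.1 on the same strand, and near-identical tubulin genes can share reads, so its counts are uncertain.

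STMN2, a stathmin that binds tubulin dimers in growing axons, was the gene of the 10 with 0 counts in a group. Be(2)-C cells had 1200 and 1240 CPM after DAC, 1150 and 1270 CPM after EPZ-6438, and 1720 and 1490 CPM after both, against 1150 and 1150 CPM in DMSO. The libraries after both drugs lay above all others of this line. It rose by 0.48 ± 0.12 after both (adjusted p = 0.00774), and the call was lost without DMSO 1 (0.46, adjusted p = 0.0793), DMSO 2 (0.48, 0.0632) or both-drug library 1 (0.37, 0.103). In IMR5-75 the counts were 26 and 34 after DAC, 4 and 6 after EPZ-6438, and 67 and 98 after both, against 0 and 0 in DMSO, and every treated library was above 0. In CPM these were 1.84 and 2.65, 0.315 and 0.472, and 4.92 and 6.74, so even the highest lay far under the Be(2)-C level.

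Against 3 counts over the IMR5-75 DMSO group, STMN2 was at least 18.9-fold higher after DAC (adjusted p = 4.29e-07), at least 3.34-fold after EPZ-6438 (adjusted p = 0.0382) and at least 49.7-fold after both (adjusted p = 6.74e-10). Against the other DMSO library alone, with the same floor of 3 counts, these bounds were 8.82, 1.56 and 23.2 without DMSO 1 and 10.1, 1.78 and 26.5 without DMSO 2. The EPZ-6438 call rests on 10 counts. It was lost without IMR5-75 DMSO 1 (adjusted p = 0.125), DMSO 2 (0.248), EPZ-6438 1 (0.109), EPZ-6438 2 (0.164), Be(2)-C DMSO 1 (0.0509) or Be(2)-C DMSO 2 (0.0503), with the DESeq2 Wald test (0.057) and with IMR5-75 fitted alone (0.0998). STMN2 was then set beside 34 other genes, chosen after the values were seen, that had at least 50 CPM in Be(2)-C DMSO and at most 5 counts over IMR5-75 DMSO. As a share of the Be(2)-C DMSO level, STMN2 stood at 0.195% after DAC, 0.0343% after EPZ-6438 and 0.507% after both, against 0% in DMSO. The medians of the other genes were 1.24%, 0.301% and 1.43%, against 0.087% in DMSO, and 28, 32 and 25 of them lay above STMN2 after the 3 treatments. Summed over the 34 genes, the IMR5-75 libraries held 2639 and 2419 counts after DAC, 199 and 114 after EPZ-6438 and 2653 and 3512 after both, against 74 and 16 in DMSO. The low DMSO values of these genes follow from how they were chosen, so only the treated libraries can be compared. There these counts and those of STMN2 were both higher after DAC and after both drugs than after EPZ-6438. Whether reads carried over from Be(2)-C libraries in sequencing make up part of the STMN2 counts was not tested, so the folds hold for the counts as deposited.

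GAP43, a growth cone phosphoprotein, had 254 and 284, 267 and 282, and 309 and 269 CPM after DAC, EPZ-6438 and both in Be(2)-C, against 319 and 315 CPM in DMSO. All treated libraries lay below DMSO, but no difference was called (-0.24 ± 0.13, -0.21 ± 0.13 and -0.13 ± 0.13). In IMR5-75 GAP43 had 4.11 and 3.20 CPM after DAC, 2.13 and 1.10 CPM after EPZ-6438 and 5.36 and 4.81 CPM after both, against 1.25 and 1.77 CPM in DMSO. The DAC and both-drug libraries lay above DMSO, and the EPZ-6438 libraries lay on either side of it. GAP43 rose by 1.29 ± 0.27 after DAC (adjusted p = 0.000986) and by 1.76 ± 0.26 after both (adjusted p = 1.05e-05), and these calls held without any 1 library. After EPZ-6438 the difference was 0.11 ± 0.32, with an interval from -0.64 to 0.86.

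The 3 genes of vesicle release went different ways in IMR5-75. SYT1, the calcium sensor of fast release, had 94.5 and 102 CPM after DAC, 130 and 132 CPM after EPZ-6438, and 106 and 80.8 CPM after both, against 139 and 127 CPM in DMSO. The DAC and both-drug libraries lay below DMSO. SYT1 fell by 0.43 ± 0.12 after DAC (adjusted p = 0.0101) and by 0.51 ± 0.12 after both (adjusted p = 0.00211). The DAC call was lost without DMSO 1 (adjusted p = 0.105) or DAC 1 (0.0772), and the other without DMSO 1 (0.0528) or both-drug library 2 (0.115). SYT1 in Be(2)-C ran from 367 to 428 CPM in treated libraries and from 381 to 387 CPM in DMSO, with no call. An antisense gene, AC090709.1, overlaps SYT1 exons, and without a stated strand setting its reads cannot be told apart from those of SYT1.

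SNAP25, a membrane protein of the fusion complex, had 9.84 and 11.5 CPM after DAC, 10.3 and 10.9 CPM after EPZ-6438, and 10.6 and 13.2 CPM after both in IMR5-75, against 8.85 and 7.65 CPM in DMSO. All treated libraries lay above DMSO. It rose by 0.53 ± 0.16 after both (adjusted p = 0.0103), a call lost without DMSO 2 (0.41, adjusted p = 0.109) or both-drug library 2 (0.40, 0.115). The differences after DAC and EPZ-6438 were each 0.36 ± 0.16 (adjusted p = 0.0933 and 0.288). SNAP25 in Be(2)-C ran from 39.4 to 52.3 CPM in treated libraries and from 43.9 to 46.6 CPM in DMSO, with no call.

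SYN1 encodes synapsin 1, which tethers vesicles to actin, and of the upstream windows searched for these genes its own held the RE1 letters. In IMR5-75 it had 29 and 22 counts after DAC, 18 and 10 after EPZ-6438, and 41 and 34 after both, against 13 and 15 in DMSO. The DAC and both-drug libraries lay above DMSO. SYN1 rose by 1.27 ± 0.36 after both (adjusted p = 0.00658, lost without DMSO 1 at 1.12 and 0.0615). The DAC difference was 0.77 ± 0.38 (adjusted p = 0.13) and the EPZ-6438 difference 0.00 ± 0.42. Its level in Be(2)-C ran from 4.45 to 6.90 CPM in treated libraries against 6.8 and 5.69 CPM in DMSO, with no call. Exons of SYN1 overlap AL009172.2 on the same strand and ARAF on the other, and the strand setting of the counting is not given in the sources used here. ARAF had 17.1 and 17.2 CPM after both drugs and 19.2 and 22.2 CPM in DMSO in IMR5-75, a difference of -0.27 ± 0.16 (adjusted p = 0.193). In DMSO alone ARAF was higher in Be(2)-C than in IMR5-75 by 0.7 ± 0.16 (adjusted p = 0.000692), as was SYN1. Whether ARAF reads enter the SYN1 counts was not tested.

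ELAVL4, a neuronal RNA-binding protein also named HuD, had 85.7 and 97.2 CPM after DAC, 121 and 134 CPM after EPZ-6438, and 83.6 and 74.4 CPM after both in IMR5-75, against 124 and 110 CPM in DMSO. The DAC and both-drug libraries lay below DMSO, and those after EPZ-6438 did not. It fell by 0.36 ± 0.12 after DAC (adjusted p = 0.0222) and by 0.57 ± 0.12 after both (adjusted p = 0.000443). The DAC call was lost without DMSO 1 (adjusted p = 0.224) or DAC 1 (0.172), and the other held without any 1 library. ELAVL4 in Be(2)-C ran from 72.4 to 91.5 CPM in treated libraries and from 79.5 to 87.9 CPM in DMSO, with no call. It was the 1 gene of the 10 with a higher level in IMR5-75 DMSO, and the drugs that lowered it there left 74.4 to 97.2 CPM, within the range seen in Be(2)-C or just above it.

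NCAM1, the neural cell adhesion molecule, moved in opposite directions in the lines. NCAM1 in Be(2)-C had 319 and 274 CPM after DAC, 415 and 334 CPM after EPZ-6438, and 380 and 396 CPM after both, against 296 and 305 CPM in DMSO. The EPZ-6438 and both-drug libraries lay above DMSO, and the DAC libraries on either side of it. It rose by 0.37 ± 0.12 after both (adjusted p = 0.0333), and the EPZ-6438 difference was 0.32 ± 0.12 (adjusted p = 0.11), called without EPZ-6438 2 (0.45, 0.0448). The call was lost without DMSO 1 (adjusted p = 0.204), DMSO 2 (0.121), both-drug library 1 (0.0856) or 2 (0.161), and without 4 IMR5-75 libraries in turn (0.0545 to 0.067). In IMR5-75 NCAM1 had 54.8 and 51.7 CPM after DAC, 70.6 and 70.6 CPM after EPZ-6438, and 53.8 and 51.6 CPM after both, against 76.1 and 61.3 CPM in DMSO. The DAC and both-drug libraries lay below DMSO. It fell by 0.37 ± 0.13 after DAC (adjusted p = 0.0317) and by 0.38 ± 0.13 after both (adjusted p = 0.0187). The DAC call was lost without DMSO 1 (-0.19, adjusted p = 0.415), DAC 1 (0.0722), DAC 2 (0.161) or EPZ-6438 2 (0.0501), and the other without DMSO 1 (-0.17, 0.425), both-drug library 1 (0.0879) or 2 (0.146). The antisense genes AP000802.1 and NCAM1-AS1 overlap NCAM1 exons, with the same limit as for SYT1.

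The comparison of both drugs with each drug alone asked what the second drug added. Both drugs against DAC in Be(2)-C raised 1 of the 10, DCX, where 3.42% of all genes rose (0.74 ± 0.16, adjusted p = 0.00889). That call was lost without DAC 2 (adjusted p = 0.177) or both-drug library 2 (0.129). Against EPZ-6438 alone 0 of the 10 changed in either direction, where 4.21% of all genes did, and 2 had an unadjusted p under 0.05. The DESeq2 Wald test called 3 and 1 of the 10 in these 2 comparisons. In IMR5-75, both drugs against DAC raised 1, STMN2, where 1.22% of all genes rose (1.39 ± 0.23, adjusted p = 0.00338, lost without both-drug library 2 at 0.0594). The both-drug counts of STMN2 of 67 and 98 lay above the DAC counts of 26 and 34.

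Both drugs against EPZ-6438 alone in IMR5-75 raised 5 of the 10, where 20.7% of all genes rose, and lowered 3, where 16.9% fell. STMN2 rose by 3.86 ± 0.33, GAP43 by 1.65 ± 0.25, SYN1 by 1.27 ± 0.36, MAP2 by 0.60 ± 0.14 and TUBB3 by 0.56 ± 0.16. ELAVL4 fell by 0.69 ± 0.12, SYT1 by 0.49 ± 0.12 and NCAM1 by 0.42 ± 0.13. The calls of STMN2, GAP43 and ELAVL4 held without any 1 library. MAP2 was lost without both-drug library 1 (adjusted p = 0.0505), TUBB3 without both-drug library 2 (0.108) or EPZ-6438 2 (0.0589), and SYT1 without the same libraries (0.163 and 0.0519). SYN1 was lost without both-drug library 1 (0.06) or EPZ-6438 2 (0.118), and NCAM1 without any of the 4 libraries compared (0.0674 to 0.122). The differences after DAC alone had the same signs for these 8 genes. The both-drug libraries are the same as in the comparison with DMSO.

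Whether the drugs' changes added up on the log2 scale was tested as an interaction. In Be(2)-C 0 of the 10 genes departed from additivity, where 0.257% of all genes did, and 0 had an unadjusted p under 0.05. In IMR5-75 0 of the 10 did, where 0.0251% of all genes did, and 1 had an unadjusted p under 0.05. The DESeq2 Wald test called 0 of the 10 in either line. For DCX the interaction was -0.36 in Be(2)-C (interval -0.90 to 0.18) and -0.41 in IMR5-75 (interval -0.98 to 0.16). These intervals are wide next to the changes themselves, so additivity is not shown.

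The change in Be(2)-C was also compared with the change in IMR5-75. After DAC 2 of the 10 had a lower change in Be(2)-C, where 5.13% of all genes did. These were STMN2 (adjusted p = 3.93e-06) and GAP43, whose difference was -1.53 ± 0.30 (adjusted p = 0.00217). After EPZ-6438 0 of the 10 differed, where 1.19% of all genes did, with 3 at an unadjusted p under 0.05, STMN2 at an adjusted p of 0.0565 and 0 calls by the DESeq2 Wald test. After both drugs 4 had a lower change in Be(2)-C, where 6.71% of all genes did, and 1, NCAM1, had a higher one, where 4.35% did. STMN2 (adjusted p = 5.42e-08), GAP43 (-1.89 ± 0.29, adjusted p = 0.000103), SYN1 (-1.52 ± 0.45, 0.0309) and MAP2 (-0.76 ± 0.20, 0.0147) were the 4, and NCAM1 differed by 0.75 ± 0.18 (0.00732). Even after both drugs the level of each of these genes in IMR5-75 stayed under that in Be(2)-C.

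Of these differences, STMN2 and GAP43 held without any 1 library. MAP2 was lost without Be(2)-C DMSO 2 (adjusted p = 0.0677), Be(2)-C both-drug library 2 (0.0677), IMR5-75 DMSO 2 (0.0825) or IMR5-75 both-drug library 1 (0.0618). NCAM1 was lost without IMR5-75 DMSO 1 (0.126) or IMR5-75 both-drug library 2 (0.06). SYN1 was lost without Be(2)-C DMSO 1 (0.113), Be(2)-C both-drug library 1 (0.123), IMR5-75 DMSO 1 (0.126), IMR5-75 DMSO 2 (0.05) or IMR5-75 both-drug library 1 (0.0949), and by the DESeq2 Wald test (0.0534).

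REST, the repressor of the RE1 element, differed between the lines in the direction opposite to 9 of the 10 genes, all but ELAVL4. In DMSO it had 1.27 and 1.19 CPM in Be(2)-C against 88.8 and 75.5 CPM in IMR5-75, a difference of -6.05 ± 0.22 (adjusted p = 9.37e-16). REST in Be(2)-C had 2.55 and 3.24 CPM after DAC, 4.54 and 4.53 CPM after EPZ-6438, and 7.39 and 7.66 CPM after both, against these 1.27 and 1.19 CPM in DMSO, with no overlap. REST rose by 1.22 ± 0.32 after DAC (adjusted p = 0.0262), by 1.87 ± 0.30 after EPZ-6438 (adjusted p = 0.00033) and by 2.60 ± 0.28 after both (adjusted p = 7.71e-07). The DAC call was lost without DMSO 1 (0.156), DMSO 2 (0.152), DAC 1 (0.0617) or DAC 2 (0.155).

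In IMR5-75 REST had 73.4 and 84.0, 82.9 and 89.7, and 78.9 and 57.7 CPM after DAC, EPZ-6438 and both, against 88.8 and 75.5 CPM in DMSO, and no change was called (-0.06 ± 0.14, 0.07 ± 0.14 and -0.27 ± 0.14). Without both-drug library 1 the difference after both was -0.46 (adjusted p = 0.0232), and over all libraries left out in turn it ran from -0.46 to -0.02. The changes of REST differed between the lines after DAC (1.28 ± 0.35, adjusted p = 0.0308), EPZ-6438 (1.80 ± 0.33, 0.00803) and both (2.87 ± 0.31, 1.28e-06). The DAC difference was lost without any 1 of 5 libraries (adjusted p of 0.0783 to 0.152), and the EPZ-6438 one without Be(2)-C DMSO 1 (0.0689) or DMSO 2 (0.0758). The highest REST level in Be(2)-C, 7.66 CPM, stayed far below the lowest in IMR5-75, 57.7 CPM. Of the 9 genes listed for REST and its partner proteins, REST was the 1 that rose in Be(2)-C after both drugs and 0 fell, while in IMR5-75 0 rose and 3 fell. Over all genes 13.2% rose and 10.4% fell in Be(2)-C, and 25.7% rose and 20.4% fell in IMR5-75, and the list was not tested against these shares. The third to fall with HDAC2 and KDM1A was RCOR2 (-0.49), named after its value was seen. HDAC2, a histone deacetylase, had 191 and 163 CPM after both drugs and 310 and 287 CPM in DMSO, a fall of 0.75 ± 0.12. KDM1A, a histone demethylase, fell by 0.48 ± 0.10.

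**Figure D3:**
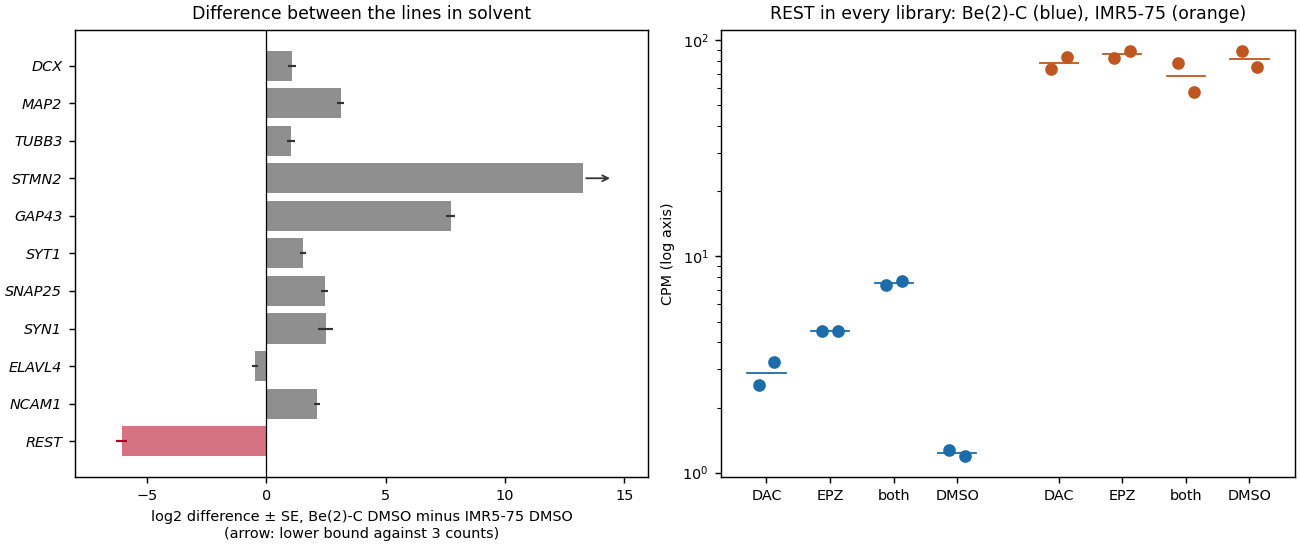
Left, log2 difference in solvent between Be(2)-C and IMR5-75 for the 10 genes (grey) and REST (red), with SE and an arrow where STMN2 is a lower bound. Right, CPM of REST (log axis) in every library, with DAC, EPZ-6438, both and DMSO for each line; all Be(2)-C libraries lie between 1.19 and 7.66 CPM and all IMR5-75 libraries between 57.7 and 89.7 CPM.

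Genes that work with the 10 were read from lists by role. Of all genes 13.2% rose and 10.4% fell after both drugs in Be(2)-C, and 25.7% rose and 20.4% fell in IMR5-75, and no list was tested against these shares. Of 20 tested microtubule genes, 5 rose and 4 fell after both drugs in Be(2)-C, and 7 rose and 2 fell in IMR5-75 (median changes 0.14 and 0.23). DCLK1, a relative of DCX, in Be(2)-C had 38.5 and 38.9 CPM after both drugs against 19.8 and 15.4 CPM in DMSO (1.13 ± 0.18), and TUBB, a widely used beta tubulin, fell by 0.63 ± 0.11. In IMR5-75 TUBB2B rose by 1.54 ± 0.14, and MAP6, which protects microtubules against cold, had 25.5 and 27.1 CPM after both drugs against 6.34 and 6.14 CPM in DMSO (2.07 ± 0.20). Of 15 growth cone genes, 2 rose, 7 fell and 6 were not called in IMR5-75 (median -0.30), among those that fell DPYSL5 by 0.73 ± 0.14 and DPYSL2 by 0.54 ± 0.11, both collapsin response mediators. Be(2)-C had 2 that rose and 1 that fell (median 0.05), RUFY3 by 0.64 ± 0.13 upward and BASP1, a membrane protein of growth cones, downward by -0.74 ± 0.14.

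Of 31 vesicle release genes, 5 rose and 1 fell after both drugs in Be(2)-C, and 16 rose and 1 fell in IMR5-75 (median changes 0.06 and 0.47). SYT4, a synaptotagmin, had 50.9 and 40.4 CPM after both drugs in IMR5-75 against 3.83 and 3.20 CPM in DMSO (3.69 ± 0.23). SNAP91, a clathrin adaptor of synapses, had 19.4 and 16 CPM against 3.10 and 3.53 CPM in DMSO (2.42 ± 0.19). The gene that fell there was SNAP23 (-0.68), the relative of SNAP25 used outside neurons, named after its value was seen. SYT5 in Be(2)-C rose by 1.32 ± 0.22 and SYT11 by 0.43 ± 0.10, the second lost without DMSO 1 (adjusted p = 0.08). After DAC alone 9 of the 31 rose in IMR5-75, where 19.9% of all genes rose, and 1 in Be(2)-C, where 3.73% did. After EPZ-6438 alone 3 rose in IMR5-75, where 1.63% of all genes did, and 2 in Be(2)-C, where 5.35% did. In these 4 comparisons 0 of the 31 fell, where 13.8%, 2.97%, 0.344% and 4.85% of all genes fell, in the same order.

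Of 15 RNA-binding genes, 5 rose and 1 fell after both drugs in Be(2)-C, and 6 rose and 5 fell in IMR5-75 (median changes 0.29 and 0.22). CELF3, a neuronal splicing factor, rose in Be(2)-C by 1.05 ± 0.17 and in IMR5-75 by 1.53 ± 0.17. RBFOX1, another splicing factor, had 7.41 and 6.67 CPM after both drugs in IMR5-75 against 1.62 and 1.26 CPM in DMSO (2.27 ± 0.26). The gene that fell in Be(2)-C was ELAVL1, the relative of ELAVL4 found in most cells (-0.58 ± 0.13). In IMR5-75 ELAVL1 (-0.36), ELAVL2 (-0.50), PTBP1 (-0.67), PTBP2 (-0.69) and RBFOX3 (-0.57) fell, named after their values were seen. PTBP1 is a splicing repressor of non-neuronal cells, so the list holds genes that are not neuronal.

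Of 16 tested adhesion genes, 5 rose and 0 fell after both drugs in Be(2)-C, and 11 rose and 0 fell in IMR5-75 (median changes 0.30 and 0.99). NRXN2 rose by 1.29 ± 0.21 in Be(2)-C, and NRCAM, a cell adhesion molecule of axons, by 1.23 ± 0.15 in IMR5-75. NCAM1 itself fell in IMR5-75, where 0 of the 16 listed adhesion genes did.

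**Figure D4:**
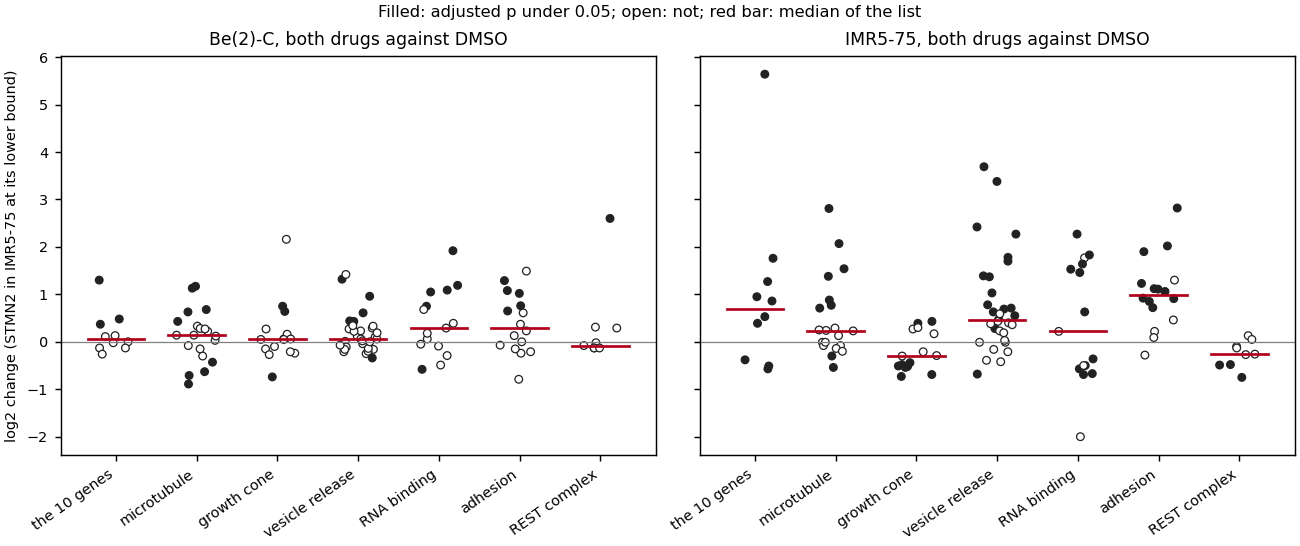
Log2 change after both drugs against DMSO for each tested gene (points) of the 10 genes and of 6 lists, with Be(2)-C on the left and IMR5-75 on the right. Filled points passed the test and red bars are medians; in IMR5-75 the adhesion list has a median of 0.99 and the growth cone list one of -0.30.

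Across the 6 changes against DMSO, the closest pairs among the 10 genes were SYT1 with ELAVL4 (root mean square difference 0.122 on the log2 scale), SYT1 with NCAM1 (0.19) and MAP2 with SNAP25 (0.22). The same measure over 13275 tested genes gave, for each gene, the most alike others. For DCX these were LOC100134229 (0.0895) and ZBTB8B (0.136), for MAP2 CELSR3 (0.055) and IFT57 (0.0624), and for TUBB3 SEPT6 (0.0411) and RABAC1 (0.0417). For GAP43 they were PPP1R16B (0.161) and FRAS1 (0.186). For SYT1 they were KIAA1429 (0.0334) and LYRM7 (0.0383), for SNAP25 PCOLCE2 (0.0332) and TMEM80 (0.0715), and for SYN1 FAR2 (0.115) and TRIM14 (0.118). For ELAVL4 they were FASTKD2 (0.0247) and ATG4C (0.0523), and for NCAM1 SCRN3 (0.0429) and ALG10B (0.0783). STMN2 is left out, because its changes in IMR5-75 are fitted against 0 counts. The 3 changes in a line share their DMSO libraries, so this likeness is only a description.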

How the data were processed

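RNA of 16 libraries was measured, and the values are raw counts per gene symbol, deposited by the authors as a single table. Per the labels' protocols, total RNA was depleted of ribosomal RNA and libraries came from a directional kit. The submitters' processing notes name TopHat2 2.0.5, HTSeq 0.5.3p9, DESeq2 and hg19, and neither gives the gene annotation or whether strand was used. In R 4.3.3, edgeR 4.0.16 filtered the genes (filterByExpr), scaled libraries by TMM and fitted a quasi-likelihood model to the 8 groups, leaving 8 residual degrees of freedom at a common biological variation of 9.88%; the code was tested on simulated data. Totals per library lay between 9539557 and 14032155, and 1191 of 23459 genes had no count anywhere. Folds against a group at 0 are bounds against 3 counts over the group and cover counting error only. The 95% intervals take the SE and a t distribution with 8 degrees of freedom. They are wider than the quasi-likelihood test implies and need not match its p-values. The 10 genes and all lists were chosen with earlier results of these data known. List genes named are, for both drugs against DMSO, the 2 or fewer called genes per list that rank first by adjusted p, and always REST, with further ones as stated; for single drugs counts are given. Some list genes, 1 that this rule also picks among them, are not reported here. For likeness, the minimum mean log2 CPM was 1. Results were recomputed with no filter, DESeq2 size factors, the Wald test of DESeq2 1.42.0, replicate number as a block, lines fitted alone and single libraries left out. Exon overlaps were read by gene name from a GENCODE annotation of another build.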

Additional observations from a re-analysis of the deposited data

Results flagged for a closer look

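The change of 5 of the 10 genes differed between the lines by a test of the difference itself (Be(2)-C minus IMR5-75, edgeR). After DAC this held for STMN2 (adjusted p = 3.926e-06, with 0 counts in IMR5-75 DMSO) and GAP43 (-1.53). After both drugs it held for STMN2 (adjusted p = 5.417e-08), GAP43 (-1.89), SYN1 (-1.52), MAP2 (-0.76) and NCAM1 (0.75). Over all genes a lower change in Be(2)-C was called for 5.13% after DAC and 6.71% after both. A higher one was called for 4.35% after both. The STMN2 and GAP43 differences held whichever single library was left out, while those of SYN1, MAP2 and NCAM1 were each lost without some libraries. MAP2 rose by 0.86 and SYN1 by 1.27 in IMR5-75, while in Be(2)-C the values were 0.11 and -0.26 without a call. NCAM1 was the gene called in opposite directions, by 0.37 in Be(2)-C and -0.38 in IMR5-75.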

How the results depend on the processing

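For the 50 calls on the 10 genes, 283 values under other settings kept 277 calls and lost 6, with 0 reversed, and 800 values with 1 library left out kept 723 and lost 77, with 0 reversed. The number of the 10 genes called after DAC in Be(2)-C was 0 with a replicate block (DCX 0.55, adjusted p = 0.0899) and 0 to 1 without 1 library. In Be(2)-C it ran from 1 to 2 after EPZ-6438 and from 1 to 3 after both drugs without 1 library, from 0 to 2 for both against DAC (2 with no filter, 3 with the DESeq2 Wald test) and from 0 to 1 for both against EPZ-6438 (1 with no filter, 1 with the Wald test). In IMR5-75 it ran from 4 to 7 after DAC (8 with no filter) and 0 to 1 after EPZ-6438 (2 with no filter, 0 with the Wald test, 0 with the line fitted alone). It ran from 6 to 10 after both, from 0 to 1 for both against DAC and from 4 to 9 for both against EPZ-6438. For the line differences it ran from 2 to 3 after DAC, 0 to 1 after EPZ-6438 (1 with no filter) and 3 to 5 after both.

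Replicate numbers did not pair the libraries in a regular way: the deviations of same-numbered libraries correlated between -0.51 and 0.39. In IMR5-75 the correlation was negative for both drugs with DAC (-0.51), DAC with DMSO (-0.42) and both drugs with EPZ-6438 (-0.39). It was positive for both drugs with DMSO (0.39) and EPZ-6438 with DAC (0.33). Whether the libraries pair under other numbers was not settled. The replicate block also ended the TUBB3 call after both drugs in IMR5-75 (adjusted p = 0.0731) and changed no other call of the 10 genes. A setting chosen after seeing the data exchanged the DAC and EPZ-6438 numbers. With it 2 of the 10 genes were called after EPZ-6438 in Be(2)-C and 2 in IMR5-75. It called 3 and 1 for both drugs against DAC and EPZ-6438 in Be(2)-C. For the line differences after DAC and EPZ-6438 it called 4 and 2. Among the calls gained by edgeR were NCAM1 after EPZ-6438 in Be(2)-C (0.31, adjusted p = 0.0238) and DCX after EPZ-6438 in IMR5-75 (0.53, 0.00776). Others in IMR5-75 were TUBB3 after DAC (0.31, 0.0151) and REST after both drugs (-0.27, 0.0242).

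Small differences without a call changed sign. After DAC in Be(2)-C, MAP2 was -0.01 with no filter and SNAP25 0 with DESeq2 size factors, and without 1 library MAP2 ran from -0.17 to 0.15, SYT1 from -0.08 to 0.15, SNAP25 from -0.05 to 0.02 and NCAM1 from -0.15 to 0.08. After EPZ-6438 there, TUBB3 ran from -0.17 to 0.06, STMN2 from -0.01 to 0.15 and SYN1 from -0.46 to 0.13. After both, TUBB3 was -0.02 with no filter, -0.01 with the line alone and 0 with exchanged numbers, and ran from -0.10 to 0.09, SYT1 from -0.07 to 0.03. In IMR5-75 REST ran from -0.18 to 0.08 after DAC and from -0.04 to 0.21 after EPZ-6438. After EPZ-6438 there, SYN1 was -0.01 with no filter and 0 with the Wald test and either replicate term, and ran from -0.47 to 0.36, TUBB3 from -0.35 to 0.03, GAP43 from -0.43 to 0.51, SYT1 from -0.09 to 0.06 and NCAM1 from -0.11 to 0.22.

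Over all genes, the calls after DAC in Be(2)-C were 1069, and 703 with the replicate term. After EPZ-6438 in IMR5-75 they were 316, with 740 under no filter and 188 with the replicate term. Both against DAC in IMR5-75 gave 309, with 541, 124 and 164 under no filter, the replicate term and the line alone. The interaction gave 41 in Be(2)-C (109 with no filter) and 4 in IMR5-75 (84, 12 and 1 with no filter, the Wald test and the line alone). The line difference after EPZ-6438 gave 190, with 425, 286 and 98 under no filter, the Wald test and the replicate term. Without 1 library these counts ran down to 297, 32, 49, 16, 1 and 48. With exchanged numbers they were 2312, 1060, 1016, 94, 29 and 598. For EPZ-6438 in Be(2)-C (1630 calls), both against DAC (869) and both against EPZ-6438 (672) there, exchanged numbers gave 2885, 1606 and 1321 and the lowest counts without 1 library were 578, 314 and 278. The line differences after DAC (988) and both (1766) were 1724 and 2812 with exchanged numbers, and the second fell to 1066 without 1 library. Without 1 library both drugs in Be(2)-C (3777) gave as few as 2097, and both against EPZ-6438 in IMR5-75 (6005) as few as 3737. The cause of these shifts was not tested. With 2 libraries a group, small changes may go undetected, and the low counts of STMN2, SYN1 and GAP43 in IMR5-75 limit their precision.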
